A study of Mus musculus with 26 samples.

Results

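The cluster of miR-183, miR-96 and miR-182 is a set of 3 miRNA genes that lie close together and are read as one primary transcript. It was followed here through its 3 dominant mature products, miR-182-5p, miR-183-5p and miR-96-5p, taken by name from the deposited count table. They are 3 of the 1915 mature miRNAs in that table, and 3 of the 605 that had enough reads to be tested. All 3 members passed that filter on low counts. The cluster was chosen by its raw counts and normalized values in the 3 groups, as seen in earlier results of these libraries, so the differences between groups below describe the members and support nothing by themselves.

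The study sequenced small RNA of CA1, a hippocampal field that memory depends on, to relate heart failure to impaired memory and to test treatment with Vorinostat. Vorinostat is an inhibitor of histone deacetylases. There were 10 libraries from transgenic CamkdeltaC mice given Vorinostat, 7 from transgenic CamkdeltaC mice given vehicle, and 9 from wild type littermates given vehicle. All were treated through the drinking water for 4 weeks from an age of 2 months, were 3 months old at the end, and included both sexes. CamkdeltaC mice carry a form of a calcium/calmodulin-dependent kinase as a transgene and are a model of heart failure. The transgene's promoter was not given in the sources used here, and no wild type mice on Vorinostat were analysed here. Whether each library came from its own animal is not stated in the labels, and p-values here therefore reflect only how much these libraries vary. CA1 tissue was sequenced in bulk, where fewer cells of a type and less RNA per cell cannot be told apart.

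A miRNA guides a silencing complex to messenger RNAs that pair with its seed, bases 2 to 8 from its 5′ end. The cluster is best known from sensory organs: it is abundant in photoreceptors and in the hair cells of the inner ear, and a change in the seed of miR-96 causes hearing loss in mice and in humans. In the mouse hippocampus the cluster has been linked to memory through repression of the phosphatase PP1, a brake on memory formation.

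The mature sequences are shown because the members differ from each other by single bases in the part that selects targets. Capitals mark the seed, and the sequences are those of RefSeq for GRCm38.p6.
mmu-miR-182-5p: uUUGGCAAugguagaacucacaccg
mmu-miR-183-5p: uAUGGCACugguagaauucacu
mmu-miR-96-5p: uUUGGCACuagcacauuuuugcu

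miR-182-5p and miR-96-5p were identical in 6 of the 7 seed bases and differed at base 8. miR-183-5p and miR-96-5p were also identical in 6 of 7 and differed at base 2. miR-182-5p and miR-183-5p differed at both of these bases. Outside the seed the order was another. Aligned from their 5′ ends, miR-182-5p and miR-183-5p were identical at 13 of the 15 positions outside the seed, against 6 of 16 for miR-182-5p and miR-96-5p and 7 of 15 for miR-183-5p and miR-96-5p. Of the 1915 rows of the count table, 1623 could be matched to a RefSeq mature sequence. None of the matched rows shared bases 2 to 8 with a member. Among the matched rows, bases 2 to 7 were shared between members only, by miR-182-5p and miR-96-5p. Rows without a match were not compared, so a shared seed among them would be missed. No other row had the counts of a member in every library. Whether reads were shared in part between rows was not tested.

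The hairpins lie on the minus strand of mouse chromosome 6 (GRCm38, GENCODE annotation). Read in the direction of transcription, Mir183 comes first, at chr6:30169668-30169737. Mir96 follows 116 bases on, at chr6:30169446-30169551. Mir182 lies a further 3453 bases on, at chr6:30165918-30165992, so the hairpins span 3820 bases in all. None of them overlaps another annotated gene. The nearest annotated genes are the lincRNA Rncr4, 3155 bases from Mir183, and Nrf1, a transcription factor of mitochondrial genes, 12459 bases from Mir182. Both are on the plus strand.

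Total miRNA counts per library, in units of 1e6, were 11.1 ± 3.49 with Vorinostat (SD, n = 10), 13.2 ± 7.56 in transgenic vehicle (n = 7) and 10.8 ± 4.68 in wild type vehicle (n = 9). Both of the shallowest libraries stood apart. Wild type vehicle replicate 1 had 0.585 and transgenic Vorinostat replicate 8 had 3.89 in these units, while the other libraries held between 6.01 and 24.8. The summed level of 5 miRNAs of forebrain neurons, led by miR-128-3p and miR-9-5p, was 196078 CPM (counts per 1e6 counts, scaled by TMM factors) in wild type replicate 1, against 307277 to 380360 CPM in the other wild type libraries, 308525 to 391461 CPM in transgenic vehicle and 316887 to 468610 CPM with Vorinostat. All 5 were detected in wild type replicate 1, with miR-137-3p lowest at 4.16 CPM. The group means, shares and differences of the members below that rest on either library are given with and without it.

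The members were of moderate and unequal abundance in CA1. Over all 26 libraries, miR-182-5p averaged 106 ± 156 CPM (SD), miR-183-5p 76.3 ± 96.7 CPM and miR-96-5p 4.69 ± 4.05 CPM. By mean CPM they ranked 170, 187 and 408 among the 605 tested miRNAs. Without wild type replicate 1 and Vorinostat replicate 8 the means were 68.4 ± 36.4, 52.6 ± 29.8 and 4.55 ± 4.02 CPM and the ranks 189, 212 and 408. Each read covers a whole mature miRNA, so these levels are not divided by length. The 3 members together took 0.0186% of a library's counts on average with Vorinostat, 0.00925% in transgenic vehicle and 0.0225% in wild type vehicle, where replicate 1 alone reached 0.109%. Without replicate 1 the wild type share was 0.0116%, and without replicate 8 the Vorinostat share was 0.0161%, so that wild type lay below Vorinostat once replicate 1 was left out. Counts per library ran from 238 to 2663 for miR-182-5p and from 201 to 2606 for miR-183-5p. For miR-96-5p they ran only from 5 to 339, so that its level in the shallowest library was 10.4 CPM with a counting interval of 3.38 to 24.3 CPM (exact Poisson, 95%, for counting error only).

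Nearly all reads came from the 5p arms. The 3p arm of miR-182 had 19 reads in all libraries together, 9 of them in transgenic Vorinostat replicate 2. The 3p arm of miR-183 had 4 reads and that of miR-96 had 2. This came to 1140, 4210 and 736 reads of the 5p arm per read of the 3p arm for miR-182, miR-183 and miR-96. None of the 3p arms passed the filter, and they are not compared between groups.

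miR-182-5p, known in mouse lymphocytes for repressing the transcription factor Foxo1, was higher with Vorinostat than in transgenic vehicle, with an overlap of a few libraries. Its lowest, median and highest levels were 48.2, 83.8 and 287 CPM with Vorinostat, against 31.4, 49.99 and 58.4 CPM in transgenic vehicle. Of the 10 Vorinostat libraries, 8 lay above every transgenic vehicle library, and all 10 lay above the transgenic vehicle mean. Among all 605 miRNAs, 4 (0.661%) had every Vorinostat library above that mean, miR-182-5p and miR-183-5p among them. The highest value was that of the shallow replicate 8. Means were 112 ± 72.6 CPM with Vorinostat (SD, n = 10) and 46.0 ± 10.04 CPM in transgenic vehicle (n = 7), and the Vorinostat mean was 92.9 ± 41.1 CPM without replicate 8.

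miR-183-5p followed miR-182-5p in most libraries. Its lowest, median and highest levels were 43.5, 52.6 and 221 CPM with Vorinostat, against 26.5, 34.3 and 75.7 CPM in transgenic vehicle. Only 3 Vorinostat libraries lay above every transgenic vehicle library, because transgenic vehicle replicate 6 held the 75.7 CPM and the next lower one held 38.9 CPM. Means were 82.7 ± 60.6 CPM with Vorinostat and 38.5 ± 16.97 CPM in transgenic vehicle (SD, n = 10 and 7). Without replicate 8, which held the 221 CPM, the Vorinostat mean was 67.3 ± 38.3 CPM, and without replicate 6 the transgenic vehicle mean was 32.3 ± 4.70 CPM.

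miR-96-5p, the member needed for hair cells to mature, did not show this separation. Its lowest, median and highest levels were 2.23, 3.67 and 20.9 CPM with Vorinostat, against 1.72, 2.84 and 6.37 CPM in transgenic vehicle. The groups overlapped over most of their range, and 5 of the 10 Vorinostat libraries lay above the transgenic vehicle mean. Means were 5.57 ± 5.61 CPM with Vorinostat and 3.26 ± 1.58 CPM in transgenic vehicle (SD, n = 10 and 7). Transgenic Vorinostat replicate 2 held the 20.9 CPM, and without it the Vorinostat mean was 3.87 ± 1.71 CPM.

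**Figure D1:**
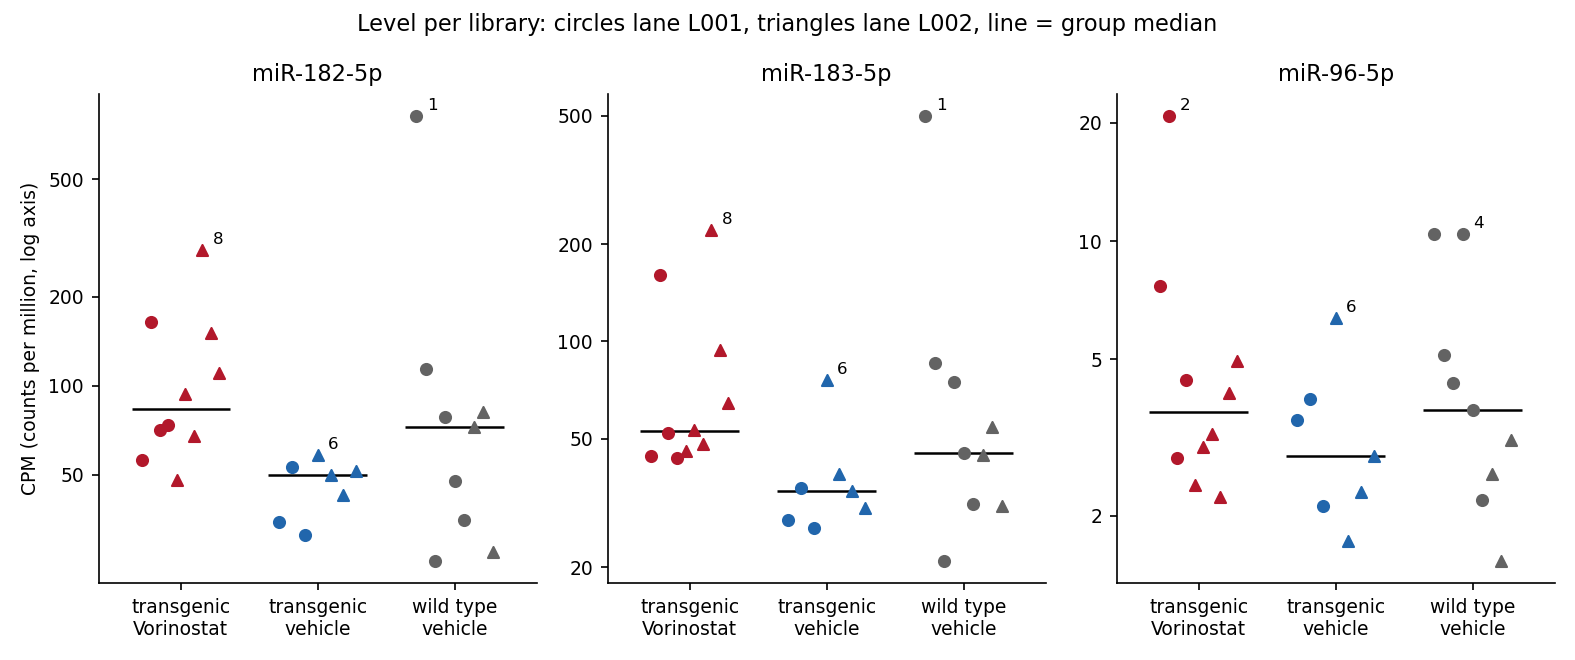
CPM of each member (vertical log axis) in every library of the 3 groups (horizontal axis), with the lane as the marker shape, the group median as a line and the replicate number beside the highest library of each group. miR-182-5p ran from 48.2 to 287 CPM with Vorinostat, from 31.4 to 58.4 CPM in transgenic vehicle and from 25.6 to 820 CPM in wild type vehicle, where replicate 1 stands far above the rest.

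In wild type vehicle the members spread more widely than in transgenic vehicle. miR-182-5p had lowest, median and highest levels of 25.6, 72.5 and 820 CPM there. The values of miR-183-5p were 20.9, 45.1 and 499 CPM, and those of miR-96-5p were 1.53, 3.72 and 10.4 CPM. For miR-182-5p and miR-183-5p the highest library was replicate 1, and the next highest, replicate 2, had 114 and 85.5 CPM. Without replicate 1 the wild type means were 60.3 ± 31.4 CPM for miR-182-5p, 48.4 ± 22.3 CPM for miR-183-5p and 4.12 ± 2.79 CPM for miR-96-5p (SD, n = 8). With it they were 145 ± 255, 98.5 ± 152 and 4.82 ± 3.35 CPM (n = 9).

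By median CPM, wild type vehicle lay between the transgenic groups for miR-182-5p, with 83.8 CPM with Vorinostat, 49.99 CPM in transgenic vehicle and 72.5 CPM in wild type vehicle. It did so for miR-183-5p, with 52.6, 34.3 and 45.1 CPM in the same groups. For miR-96-5p the medians were 3.67 CPM with Vorinostat, 2.84 CPM in transgenic vehicle and 3.72 CPM in wild type vehicle. Vorinostat and wild type changed places without wild type replicate 1, which lowered the wild type median to 3.41 CPM. The orders of miR-182-5p and miR-183-5p were the same without it, with wild type medians of 60.1 and 44.7 CPM. Neighbouring groups in each order overlapped in range. The SD of log2 CPM of miR-182-5p was 0.80 with Vorinostat, 0.34 in transgenic vehicle and 0.80 in wild type vehicle without replicate 1. The median SD over all 605 miRNAs was 0.59, 0.46 and 0.47 in the same groups.

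Across all 605 miRNAs, 1 model of the 3 groups was fitted with edgeR's quasi-likelihood test, and miRNAs with a p below 0.05 after Benjamini-Hochberg adjustment are named as called. With Vorinostat against transgenic vehicle, 0 of the 3 members and 0 of all 605 miRNAs (0%) were called. At an unadjusted p under 0.05 the test gave 21 miRNAs, and DESeq2 and limma voom also called 0, with 26 and 16 at an unadjusted p under 0.05. The log2 difference, Vorinostat over vehicle, came to 1.28 with an SE of 0.57 for miR-182-5p, to 1.10 with an SE of 0.53 for miR-183-5p and to 0.80 with an SE of 0.44 for miR-96-5p. The adjusted p was 0.836 for each member in edgeR's quasi-likelihood test. By size these were the highest, the second highest and number 12 of 605 log2 differences, and 3 miRNAs (0.496%) had a log2 difference of at least 1. DESeq2 gave miR-182-5p a log2 difference of 1.17 (SE 0.31) and an adjusted p of 0.0939. Its own rule had replaced the count of 394 in wild type replicate 1 by 30.

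The SE of miR-182-5p and miR-183-5p in this comparison depended on a library outside it. Without wild type vehicle replicate 1, which belongs to neither group but shares the fit, their log2 differences were 1.26 (SE 0.34) and 1.08 (SE 0.36). Without transgenic Vorinostat replicate 8 as well, they were 0.99 (SE 0.30) and 0.80 (SE 0.31), with an adjusted p of 0.927 in edgeR's quasi-likelihood test. For miR-96-5p, 1 Vorinostat library decided the size: the log2 difference was 0.21 (SE 0.35) without replicate 2.

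Sequencing lanes, named in the column headers as L001 and L002, held 13 libraries each and libraries of all 3 groups. Within L001 the log2 differences, Vorinostat over transgenic vehicle, were 1.16 for miR-182-5p, 1.30 for miR-183-5p and 1.45 for miR-96-5p. Within L002 they were 1.30, 0.96 and 0.02. Values of miR-182-5p and miR-183-5p were thus of similar size in both lanes, while that of miR-96-5p was near 0 in L002.

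**Figure D2:**
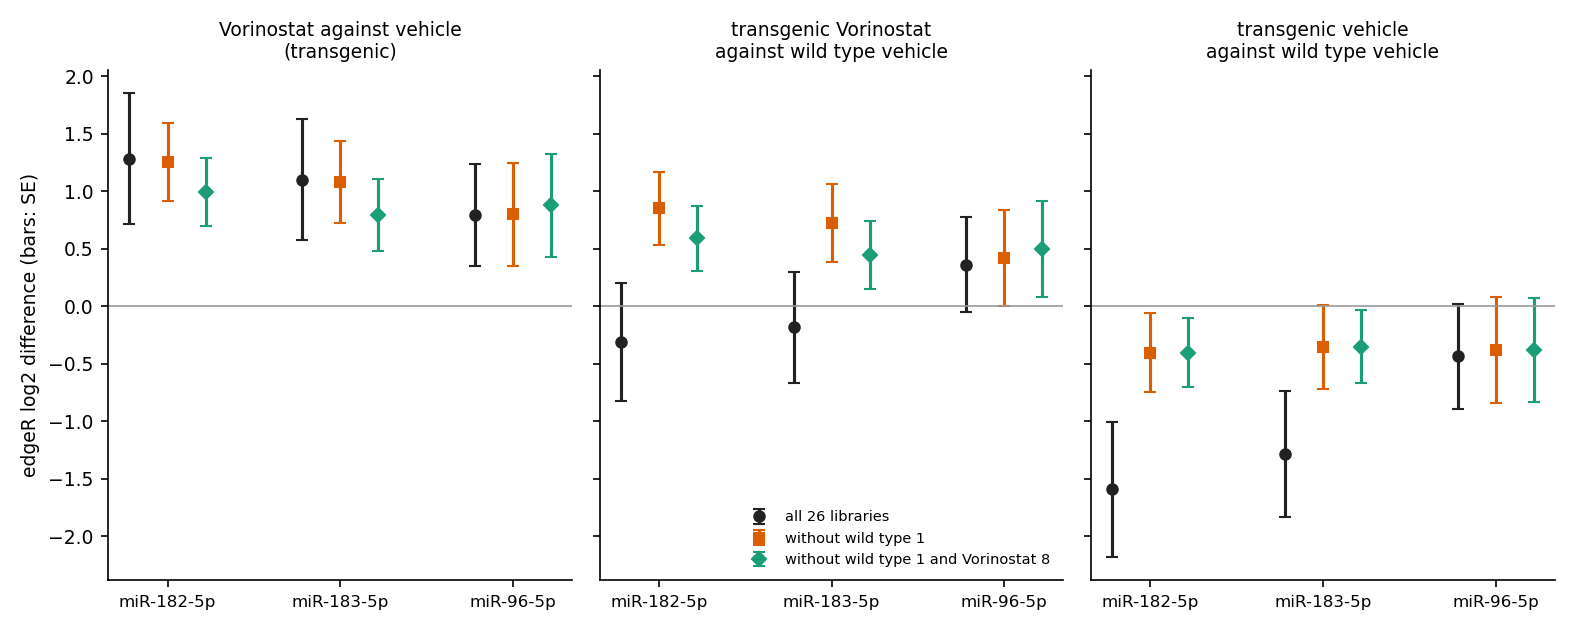
log2 differences of each member from edgeR (vertical axis, bars are SE) in 3 comparisons, with all 26 libraries, without wild type vehicle replicate 1, and without that library and transgenic Vorinostat replicate 8. The difference of miR-182-5p between transgenic vehicle and wild type vehicle was -1.59 with all libraries and -0.41 without wild type replicate 1.

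In the transgenic groups, libraries with the same replicate number varied together and were taken as 7 pairs of a Vorinostat and a vehicle library. No label states a pairing, and every pair except number 5 also shared a lane. Whether same-numbered libraries were more alike than other libraries was not tested, so the paired results below rest on this assumption. In all 7 pairs the Vorinostat library held more miR-182-5p, by a log2 difference of 0.42 to 2.52 with a median of 1.09. Of all 605 miRNAs, 46 (7.6%) were higher with Vorinostat in every pair. The widest pairs were number 8, with 287 CPM under Vorinostat and 49.99 CPM under vehicle, and number 2, with 164 CPM under Vorinostat and 34.7 CPM under vehicle. The narrowest was number 3, with 71.1 CPM under Vorinostat and 53.1 CPM under vehicle.

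miR-183-5p was higher in 6 of the 7 pairs, with a median log2 difference of 1.07. The exception was pair 6, with 53.2 CPM under Vorinostat and 75.7 CPM under vehicle. miR-96-5p was higher in 5 of 7 pairs, with a median of 0.34. It ranged from -1.05 in pair 6 to 2.52 in pair 2, which held 20.9 CPM under Vorinostat and 3.50 CPM under vehicle.

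With the pair as a block, edgeR's quasi-likelihood test over these 14 libraries called 5 of 567 miRNAs (0.882%), 3 of them higher with Vorinostat (0.529%). At an unadjusted p under 0.05 this paired fit gave 147 of the 567 miRNAs, against 21 of 605 in the fit of all libraries. miR-182-5p was among the 5 called, with a log2 difference of 1.34 (SE 0.26) and an adjusted p of 0.042. The other two that were higher were miR-129-5p (0.68) and miR-379-5p (0.56), and the lower ones were miR-29c-3p (-0.77) and miR-339-5p (-1.19), all with the same adjusted p. In this edgeR fit miR-183-5p had 1.21 (SE 0.33) with an adjusted p of 0.0557, and miR-96-5p had 0.47 (SE 0.40) with an adjusted p of 0.473. The call did not hold for every set of pairs. Leaving out pair 2, 6, 8, 9 or 10 left 0 calls, with adjusted p for miR-182-5p between 0.0675 and 0.133 in the same test, while leaving out pair 3 or pair 5 gave 29 and 15 calls with miR-182-5p among them.

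**Figure D3:**
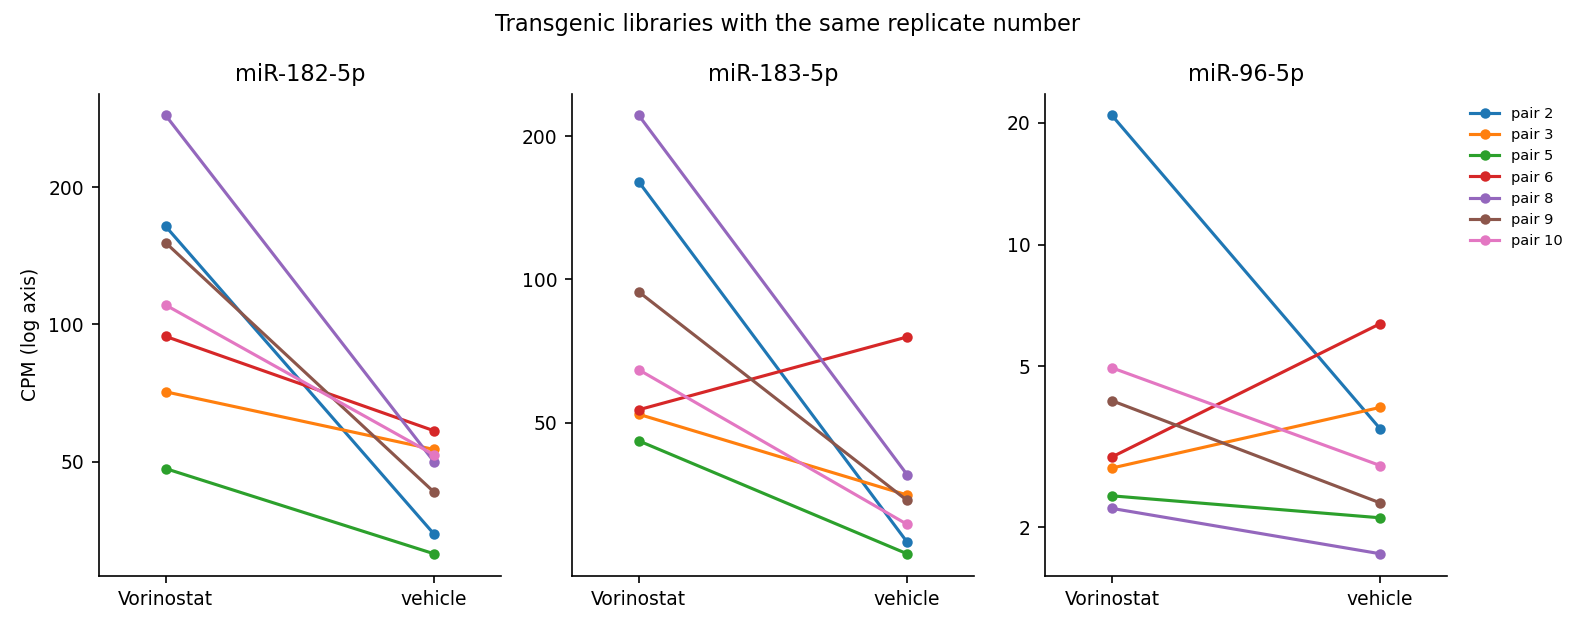
CPM of each member (vertical log axis) in the Vorinostat library and the vehicle library of each of 7 pairs of transgenic libraries that share a replicate number, joined by a line. Every line of miR-182-5p is higher at Vorinostat, 1 line of miR-183-5p and 2 lines of miR-96-5p are lower there.

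With transgenic vehicle against wild type vehicle, 0 of 605 miRNAs (0%) were called by edgeR's quasi-likelihood test, 13 had an unadjusted p under 0.05, and DESeq2 and limma voom called 0, with 18 and 7 at that unadjusted p. The log2 differences, transgenic over wild type, came to -1.59 with an SE of 0.59 for miR-182-5p, to -1.29 with an SE of 0.55 for miR-183-5p and to -0.44 with an SE of 0.46 for miR-96-5p, with an adjusted p of 0.98 each. A log2 difference of -1 or less was found for 11 of 605 miRNAs (1.82%). The size rested on wild type replicate 1. Without it the differences were -0.41 (SE 0.34), -0.35 (SE 0.37) and -0.38 (SE 0.46). This comparison and the one above share the 7 transgenic vehicle libraries. Within L002 the difference of miR-183-5p was 0.04 and that of miR-96-5p 0.42, so neither was lower in transgenic vehicle there.

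With transgenic Vorinostat against wild type vehicle, 0 of 605 miRNAs (0%) were called by edgeR's quasi-likelihood test, 19 had an unadjusted p under 0.05, and DESeq2 and limma voom called 0, with 29 and 23 at that unadjusted p. The log2 differences came to -0.31 with an SE of 0.51 for miR-182-5p, to -0.18 with an SE of 0.48 for miR-183-5p and to 0.36 with an SE of 0.41 for miR-96-5p. The direction for the first pair of members turned on wild type replicate 1: without it the values were 0.85 (SE 0.32) and 0.73 (SE 0.34). For miR-96-5p it turned on Vorinostat replicate 2, without which the value was -0.21 (SE 0.33). DESeq2 gave 0.81 for miR-182-5p after its own rule replaced the count of 394 in wild type replicate 1 by 30.

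In wild type replicate 1 other miRNAs stood apart beside the cluster. Of these, miR-127-3p and miR-148a-3p were listed because an earlier look had found them high in this library. Their high levels there are therefore a description only. miR-127-3p, from an imprinted miRNA locus, had 222291 CPM and miR-148a-3p 196355 CPM there, against at most 59471 and 22703 CPM in the other wild type libraries. miR-7a-5p, a miRNA of neuroendocrine cells, had 51869 CPM against at most 35876 CPM. The sum of 8 markers of choroid plexus and ependyma was 410 CPM, against 519 to 868 CPM with Vorinostat, 579 to 807 CPM in transgenic vehicle and 548 to 783 CPM in the other wild type libraries, with miR-449a-5p at 0 in replicate 1. The erythrocyte sum over 3 markers was 2033 CPM, against 583 to 1228 CPM with Vorinostat, 563 to 877 CPM in transgenic vehicle and 516 to 699 CPM in the other wild type libraries, with miR-144-3p at 0. As sums, the choroid plexus and ependyma list was thus low and the erythrocyte list high in replicate 1. In the former, miR-204-5p (258 CPM) and miR-34c-5p (18.7 CPM) lay below all other wild type libraries, which had at least 391 and 27.5 CPM. miR-211-5p, miR-200a-3p, miR-200b-3p, miR-429-3p and miR-34b-5p lay within the range of those libraries. The microglia sum over 3 markers was 2.08 CPM, against 15.02 to 40.4 CPM with Vorinostat, 19.6 to 40.5 CPM in transgenic vehicle and 20.2 to 33.3 CPM in the other wild type libraries, with miR-223-3p and miR-142a-3p at 0. The oligodendrocyte sum over 3 markers was 1592 CPM, against 797 to 1319 CPM with Vorinostat, 750.3 to 1652 CPM in transgenic vehicle and 719 to 1302 CPM in the other wild type libraries, with miR-219a-5p at 0. Of it miR-219a-2-3p held 1575 CPM, while miR-338-3p had 16.6 CPM, against at least 84.4 CPM in the other wild type libraries. The markers at 0 in replicate 1 averaged 0.397 to 3.54 CPM over all libraries, and 5 reads of miR-96-5p made 10.4 CPM there. A value of 0 at this depth therefore does not show absence. The part of these markers in the members' levels was not tested.

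In transgenic Vorinostat replicate 8, the sum of 4 miRNAs of Hox gene clusters, which mark hindbrain and spinal cord, was 156 CPM. It was 20.1 to 76.1 CPM in the other Vorinostat libraries and 24.1 to 38.3 CPM in transgenic vehicle. In wild type vehicle it was 14.99 to 52.2 CPM without replicate 1, and 95.7 CPM in replicate 1. In Vorinostat replicate 8, miR-10b-5p contributed 94.4 CPM and miR-10a-5p 62.0 CPM, while miR-196a-5p and miR-196b-5p were at 0. Wild type replicate 1 had 22.9 CPM of miR-10b-5p and 72.8 CPM of miR-10a-5p. Replicate 8 also shared features with wild type replicate 1. It had 107286 CPM of miR-127-3p, 57546 CPM of miR-148a-3p and 46861 CPM of miR-7a-5p. The sum of the 4 miRNAs listed as high in wild type replicate 1 was 176702 CPM in Vorinostat replicate 8, against 40554 to 108806 CPM in the other Vorinostat libraries, 30560 to 79022 CPM in transgenic vehicle and 36239 to 86269 CPM in wild type vehicle without replicate 1. The sum of 6 miRNAs linked to memory was 4533 CPM in replicate 8 and 5921 to 11599 CPM in the other Vorinostat libraries. Most of it was miR-124-3p (3211 CPM), and the list was not uniform. miR-134-5p had 223 CPM, above its Vorinostat mean of 163 ± 44.2 CPM (SD). miR-132-3p had 824 CPM against 953 ± 162 CPM, and miR-138-5p, miR-212-3p and miR-34c-5p were also below their means. The forebrain neuron sum of replicate 8 was 421751 CPM, within the range of its group. It came mostly from miR-128-3p (316947 CPM) and miR-9-5p (101332 CPM). The rest of that list was low in replicate 8. miR-124-3p had 3211 CPM, miR-138-5p 226 CPM and miR-137-3p 35.0 CPM, against Vorinostat means of 6172, 446 and 93.4 CPM. The part of these in the members' levels was not tested.

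In transgenic Vorinostat replicate 2, where miR-96-5p was highest, the miR-200 family also stood high. The sum of its 5 members, which mark epithelium and some sensory cells, was 382 CPM there, the second highest of 26 libraries. The highest was 397 CPM, in transgenic vehicle replicate 6, where miR-183-5p and miR-96-5p were highest among the transgenic vehicle libraries. Both did not go together in every library: the next 3 libraries by miR-96-5p, wild type replicates 4 and 1 and Vorinostat replicate 1, ranked 11, 18 and 21 of 26 for the miR-200 family, with sums of 142, 95.7 and 92.3 CPM. The whole list of 10 miRNAs of choroid plexus, ependyma and epithelium summed to 847 CPM in Vorinostat replicate 2, within the ranges of 520 to 872 CPM with Vorinostat, 582 to 808 CPM in transgenic vehicle and 410 to 786 CPM in wild type vehicle. Its part in the levels of miR-96-5p was not tested.

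Other lists of miRNAs that fit the tissue showed no call in any of the 3 comparisons by edgeR's quasi-likelihood test. For each list the log2 differences below are Vorinostat over transgenic vehicle, where the median over all 605 miRNAs was -0.01. Of 6 miRNAs linked to memory, all were tested and their median was -0.13. The most abundant were miR-124-3p (-0.33, SE 0.30), which supports neuronal identity, and miR-132-3p (0.17, SE 0.15), which is induced by neuronal activity. Of the 10 choroid plexus, ependyma and epithelium miRNAs, 8 were tested with a median of 0.05, including miR-204-5p (0.05, SE 0.15) and miR-200b-3p (-0.02, SE 0.40). They ran from -0.51 (SE 0.28) for miR-34c-5p to 0.25 (SE 0.50) for miR-200c-3p. Of the 4 Hox-linked miRNAs, 2 were tested, miR-10a-5p (0.71, SE 0.32) and miR-10b-5p (1.07, SE 0.71). The miR-10b-5p mean with Vorinostat was 15.6 ± 28.1 CPM (SD, n = 10), with 94.4 CPM in replicate 8. In transgenic vehicle its mean was 7.13 ± 6.26 CPM (n = 7). The difference of miR-10b-5p without replicate 8 is not given here, and its size should not be read as shared by the group. The 5 forebrain neuron miRNAs had a median of -0.16, with miR-128-3p at 0.31 (SE 0.14) and miR-9-5p at -0.04 (SE 0.15). The rest were negative, with miR-138-5p at -0.16 (SE 0.24), miR-124-3p at -0.33 and miR-137-3p at -0.50 (SE 0.40).

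The sensory and neuroendocrine list of 5 held the cluster itself beside miR-7a-5p (0.27, SE 0.21) and miR-375-3p (-0.17, SE 0.34). Both were below the difference of each member in the fit of all libraries, but miR-96-5p, at 0.21 without Vorinostat replicate 2, was then not above miR-7a-5p. The 3 erythrocyte miRNAs had a median of 0.18, with miR-486a-5p at 0.18 (SE 0.25), miR-451a at 0.19 (SE 0.25) and miR-144-3p at -0.86 (SE 0.47). The 3 oligodendrocyte miRNAs had a median of -0.49, with miR-219a-2-3p at -0.02 (SE 0.19), miR-338-3p at -0.49 (SE 0.35) and miR-219a-5p at -0.57 (SE 0.38). Of the 3 microglia miRNAs 2 were tested, miR-142a-5p (-0.13, SE 0.26) and miR-142a-3p (-0.04, SE 0.30). The list of 4 miRNAs that an earlier look at wild type replicate 1 had found high there had a median of 0.71, with miR-127-3p at 0.49 (SE 0.38) and miR-148a-3p at 0.69 (SE 0.56).

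miR-182-5p and miR-183-5p varied together from library to library. Over 26 libraries their log2 CPM had a Pearson r of 0.96 and a Spearman rho of 0.90, each with an adjusted p of 3e-05 over the 6 correlations computed (permutation test, two-sided, 100000 resamples, where 1e-05 is the smallest unadjusted p they can give). Without wild type replicate 1 and Vorinostat replicate 8, the libraries farthest from the median, r was 0.90. It was 0.98 within L001 and 0.90 within L002. The ratio of miR-182-5p to miR-183-5p reads stayed in a narrow range, 1.42 ± 0.27 with Vorinostat, 1.28 ± 0.29 in transgenic vehicle and 1.27 ± 0.27 in wild type vehicle (SD). Its lowest value was 0.772, in transgenic vehicle replicate 6, and its highest was 1.77, in Vorinostat replicate 6. Reads of these miRNAs share the library and its depth in each point.

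miR-96-5p was tied more loosely to the other two. With miR-182-5p its r was 0.43 (adjusted p = 0.0465) and its rho 0.37 (adjusted p = 0.062) in the same permutation tests. With miR-183-5p they were 0.52 (adjusted p = 0.0174) and 0.40 (adjusted p = 0.0521). Without the farthest libraries, r was 0.46 and 0.63. Within L001, r was 0.66 to miR-182-5p and 0.72 to miR-183-5p. Within L002 it was 0.07 and 0.19, and without Vorinostat replicate 8, which held 7 reads of miR-96-5p, it was 0.29 and 0.56 there. No correlation with miR-96-5p was past the threshold in L002, and the difference between lanes was not tested. The share of miR-96-5p in the cluster's reads was 3.10 ± 2.02% with Vorinostat, 3.68 ± 1.13% in transgenic vehicle and 3.73 ± 2.54% in wild type vehicle (SD). Without Vorinostat replicate 8 and wild type replicate 1 it was 3.40 ± 1.90% with Vorinostat and 4.09 ± 2.44% in wild type vehicle. Single libraries ran from 0.436% in Vorinostat replicate 8 to 8.54% in wild type replicate 3.

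**Figure D4:**
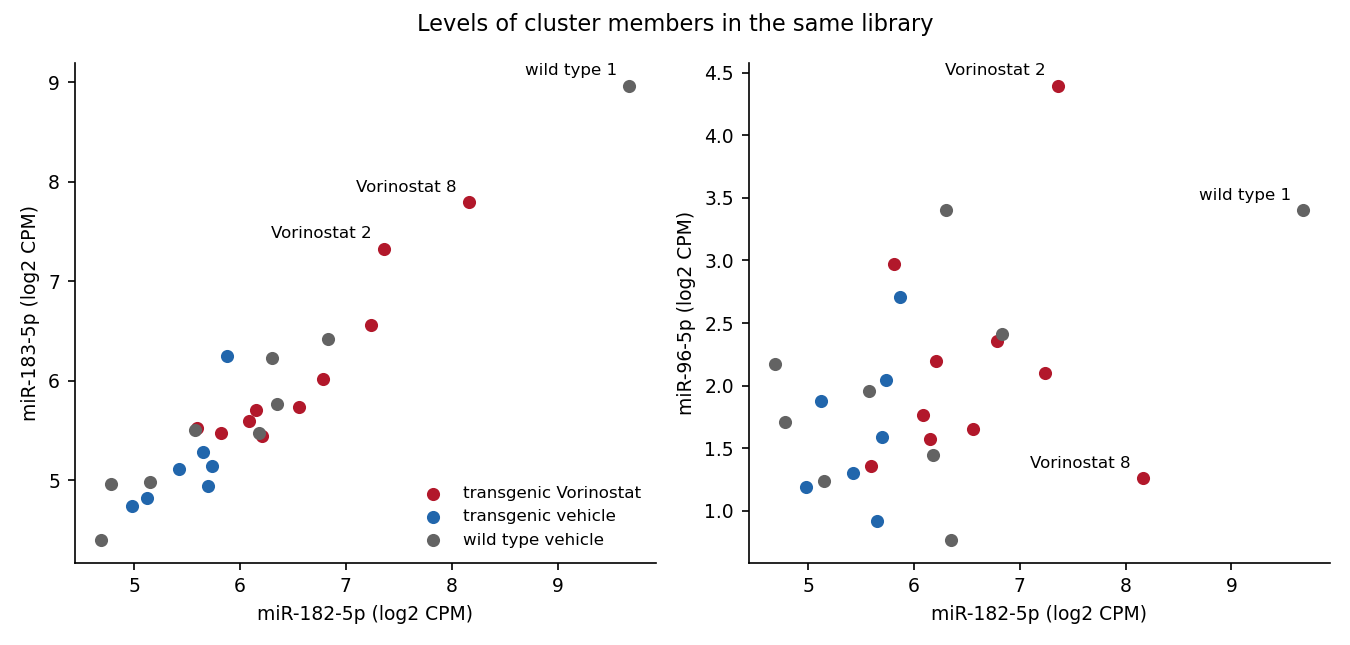
log2 CPM of miR-183-5p (left, vertical axis) and of miR-96-5p (right, vertical axis) against log2 CPM of miR-182-5p (horizontal axes) in 26 libraries of 3 groups. miR-183-5p lies close to a line with miR-182-5p (r = 0.96), and miR-96-5p scatters (r = 0.43), with Vorinostat replicate 2 high and Vorinostat replicate 8 low.

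The miRNAs outside the cluster whose pattern was most like the mean log2 CPM of the members were found over all 26 libraries. They were miR-200a-5p (rho = 0.68), miR-673-3p (0.60), miR-379-5p (0.59), miR-129-5p (0.59) and miR-24-2-5p (0.57). Over all 602 non-members the median rho was -0.08. Without wild type replicate 1 and Vorinostat replicate 8 the values were 0.59, 0.50, 0.50, 0.50 and 0.55. Their order among the non-members changed as well. Another miRNA then had the highest rho, 0.63, while miR-200a-5p ranked 2 and miR-129-5p ranked 8. The first 4 of the 5 named above were also high in wild type replicate 1, where miR-200a-5p had 125 CPM, against a median of 7.76 CPM in its group. These rho values are descriptions over libraries that differ in depth and lane.

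The authors' normalized table held all 3 members, on a log2 scale made by a method not stated in the labels or headers. In the authors' deposited table miR-182-5p ran from 10.71 to 12.7 with Vorinostat and from 9.55 to 10.25 in transgenic vehicle, so that the groups did not overlap. Over the 674 miRNAs of that table, 25 (3.71%) had all Vorinostat values above all transgenic vehicle values, and 67 (9.94%) had them below. For miR-183-5p the authors' deposited table gave 10.70 to 13.01 with Vorinostat and 9.87 to 10.90 in transgenic vehicle, where 7 of 10 Vorinostat libraries lay above every vehicle library. For miR-96-5p it gave 4.09 to 6.43 with Vorinostat and 3.90 to 5.38 in transgenic vehicle.

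The mean differences in the authors' deposited table, Vorinostat over transgenic vehicle, were 1.72 for miR-182-5p, 1.33 for miR-183-5p and 0.33 for miR-96-5p. The same differences in mean log2 CPM were 1.10, 0.93 and 0.50. The authors' deposited values lay above log2 CPM by 4.70, 5.24 and 2.75 on average, and this offset varied between libraries, from 3.78 to 5.82 for miR-182-5p. Levels of different miRNAs in that table are therefore not compared. A second deposited table of the authors placed the 3 members in the same co-expression module, blue, with 197 of 674 miRNAs. Memberships in the authors' deposited table were 0.83 for miR-182-5p and 0.79 for miR-183-5p but 0.17 for miR-96-5p, which ranked 191 of the 197.

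**Figure D5:**
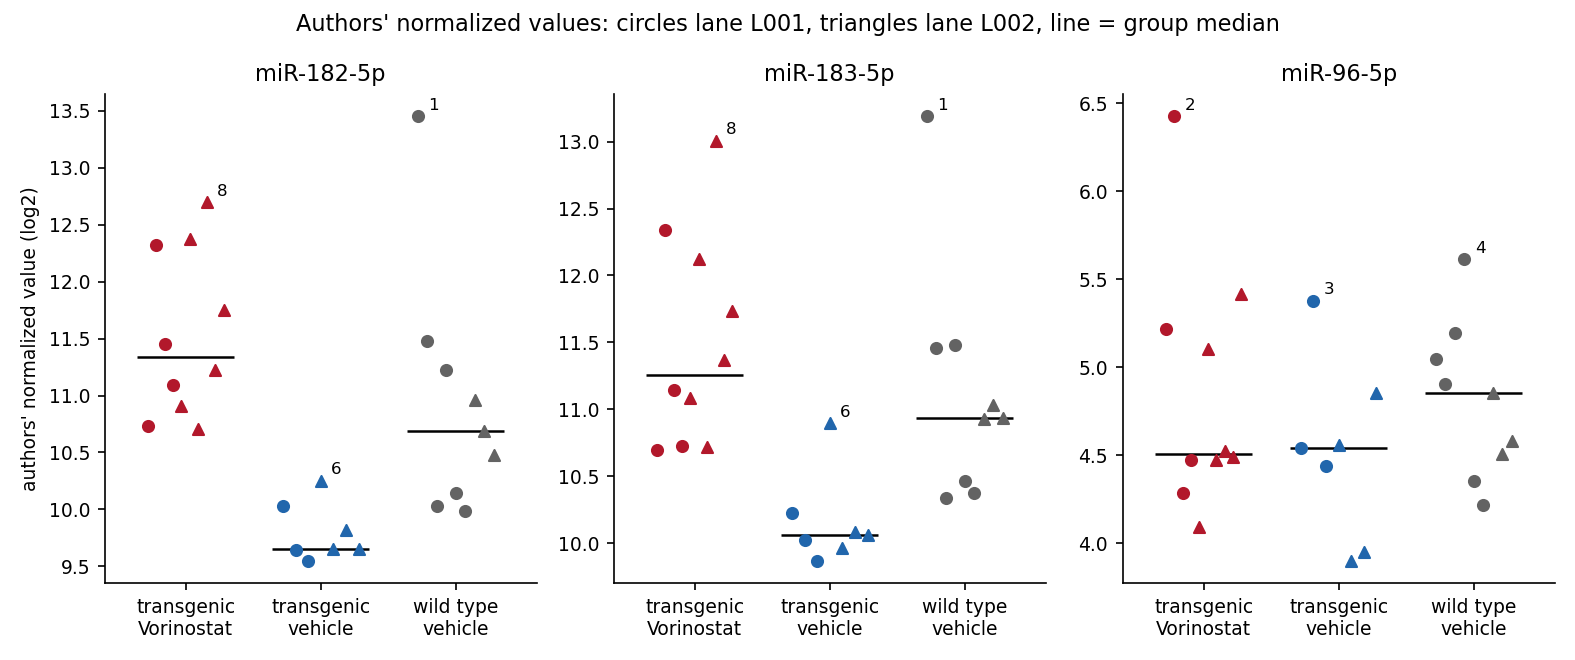
Authors' normalized values of each member (vertical axis, log2) in every library of the 3 groups (horizontal axis), with the lane as the marker shape, the group median as a line and the replicate number beside the highest library of each group. Values of miR-182-5p with Vorinostat, from 10.71 up, lie above all those of transgenic vehicle, up to 10.25, and values of miR-96-5p overlap.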

How the data were processed

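Per the labels' protocols, mouse CA1 libraries from the TruSeq Small RNA kit were read as single 50-base reads on a HiSeq2000. FastQC 0.11.5 and the mm10 build are named in the submitters' processing notes. What aligner, miRNA annotation and counting were used was not given in the sources used here. Deposited by the authors were raw counts for each mature miRNA, normalized values on a log2 scale, and module memberships, a score from -1 to 1, beside p-values that the authors deposited and that were not used here.

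Counts were tested with edgeR 4.0.16 (R 4.3.3), TMM factors and filterByExpr (minimum count 10, total 15), which left 605 miRNAs. CPM is the count over the library total times its TMM factor, on a scale of 1e6, and log2 CPM adds a prior count of 2. Correlations used scipy 1.17.1. Alternatives were other scalings and filters, DESeq2 1.42.0, limma voom 3.58.1, edgeR's robust setting, only the compared groups, lanes, the replicate block and leaving out each library. The edgeR step was tested on simulated data.

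Groups came from the genotype and agent labels and replicate numbers from the titles. Same-numbered transgenic Vorinostat and vehicle libraries deviated together in all 7 pairs (r from 0.265 to 0.599), which was taken as pairing from the data. The labels name no pairing, and no baseline from libraries of different numbers was computed. With wild type this held for 6 of 9 and 4 of 6 pairs, with r up to 0.58 and 0.458, so those were not treated as paired. The members and lists were chosen with earlier results of these data known. Named were the members, their 3p arms, called members of each list or its 2 most abundant, and the 5 miRNAs most like the cluster. Further list members are named where they show how far a list was uniform.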

Additional observations from a re-analysis of the deposited data

Results flagged for a closer look

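Of 9 combinations of a member and a group, 5 held a library far from the others of its group. For single normal values chance gives about 1 in 20, but over all 605 miRNAs the same measure on CPM found such a library for 11.1% with Vorinostat, 5.95% in transgenic vehicle and 30.6% in wild type vehicle. In 116 miRNAs it was wild type replicate 1 on the high side, and in 35 it was Vorinostat replicate 8. In wild type vehicle, replicate 1 had 820 CPM of miR-182-5p and 499 CPM of miR-183-5p, while the next highest library had 114 and 85.5 CPM. With Vorinostat, replicate 8 had 287 CPM of miR-182-5p, and the next highest library had 164 CPM. These are the 2 shallowest libraries. With Vorinostat, replicate 2 had 20.9 CPM of miR-96-5p, from 339 reads, and the next highest had 7.68 CPM. In transgenic vehicle, replicate 6 had 75.7 CPM of miR-183-5p, and the next highest had 38.9 CPM. The cause was not tested for any of them.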

How the results depend on the processing

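With Vorinostat against transgenic vehicle, every member kept its positive sign under every alternative run. No miRNA was called except with the replicate block over the 7 pairs, which called 5 and put miR-182-5p (1.34) past the threshold. Leaving out each pair gave 0 to 29 calls and 1.15 to 1.49 for miR-182-5p, which passed without pair 3 (29 calls, 1.49) and pair 5 (15 calls, 1.46). The block over all libraries, and the blocks with wild type, called 0. Scaling by library totals only moved the median of all miRNAs by -0.13. A filter at a mean of 10 CPM removed miR-96-5p.

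With Vorinostat against wild type, miR-182-5p turned positive with DESeq2 (0.81), limma voom (0.57), without wild type replicate 1 and Vorinostat replicate 8 (0.59), within L002 (1.03), within L001 without wild type replicate 1 (0.57), and with the replicate block over all libraries (0.56) or pairs (0.52). Leaving out each library gave -0.57 to 0.85. miR-183-5p did so with voom (0.40), without both libraries (0.44), within L002 (0.996), within L001 without replicate 1 (0.52) and with the blocks (0.44, 0.36), with -0.47 to 0.73 when each library was left out. miR-96-5p gave -0.21 to 0.65 when each library was left out. With transgenic vehicle against wild type, L002 gave 0.037 for miR-183-5p and 0.42 for miR-96-5p. Apart from the replaced count under DESeq2 and the libraries left out, the cause was not tested.

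Between miR-182-5p and miR-96-5p, r lost its call within L002 (0.072; 0.29 without Vorinostat replicate 8) and on deviations from group means (0.37), and rho passed within L001 (0.75; 0.71 without wild type replicate 1) and over 24 libraries (0.42). For miR-183-5p and miR-96-5p, r lost its call within L002 (0.19; 0.56), and rho passed within L001 (0.69; 0.63) and over 24 libraries (0.45).

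Counts of miR-96-5p as low as 5, and the single Vorinostat library that decides its difference, limit it. Leaving out pairs, and a deviating library within its lane, were chosen after seeing the data.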
